A study of Mus musculus with 85 samples.

Results

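Oxidative phosphorylation is carried out by the enzyme complexes of the mitochondrial inner membrane, and most of their subunits are encoded in the nucleus. The genes described here are those whose symbol starts with Nduf, Sdh, Uqcr, Cox4 to Cox8 or Atp5 in the annotation of the array. There were 94 such genes of 18194 named genes, and each was read on the brightest of its probe sets. Of these 94 genes, 87 gave a signal above background in at least 3 cells and were counted as measured, against 10695 of all genes. They comprised 33 measured genes of complex I, 4 of complex II, 8 of complex III, 12 of complex IV, 17 of complex V and 13 assembly factors. A level is given as a log2 expression value, and values over 5 counted as above background.

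Electrons from NADH enter the chain at complex I (NADH dehydrogenase) and those from succinate at complex II, which is also an enzyme of the tricarboxylic acid (TCA) cycle. Complex III passes them to cytochrome c and complex IV to oxygen. Complexes I, III and IV pump protons, and complex V (ATP synthase) uses the proton gradient to make ATP. Resting adult blood stem cells are known for relying mainly on glycolysis, and mitochondrial activity is used in the field to tell resting from active ones.

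The data were 85 single mouse cells from 5 sorted populations, each on its own array. The 7 endothelial cells (EC) and the 7 hemogenic endothelial cells (HEC), which give rise to blood, came from the caudal region of embryos at embryonic day (E) 10.5. These embryos carried the eR1-GFP reporter, in which a Runx1 enhancer drives GFP; both populations were CD31+Ter119-CD45-CD41-, with EC taken as GFP- and HEC as GFP+. Cluster cells, the blood cells attached to the wall of the dorsal aorta, were c-Kit+CD31+CD45+SSEA1- cells of wild type embryos, from the caudal region at E10.5 (28 cells) and from the aorta-gonad-mesonephros region at E12.5 (16 cells). Hematopoietic stem cells (HSC) were Mac-1+, CD150+ and CD48- among the Lin-Sca-1+c-Kit+ cells of wild type E14.5 fetal liver (27 arrays). All tissues were dissociated with collagenase at 37 °C. HEC and cluster cells thus differed in reporter genotype as well as in the gate, and cluster cells and HSC in tissue and age. No label named an animal, a litter or a culture, so each population counted as 1 sample, no test was made, and every SD below is a spread between cells.

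Between 3908 and 11487 probe sets per cell were above background. EC had a median of 5729 and HEC one of 7834, with medians of 9967 at the E10.5 and 7916.5 at the E12.5 cluster stage and of 6582.5 in HSC. Because this breadth of detection differed between populations in the same order as the levels described below, the results are set beside the values of all measured genes and of the 2158 genes with a signal in 75% of cells or more, called widely detected genes. Fetal liver HSC arrays 20 and 21 were nearly identical (r = 0.991 across the array, and 0.859 for the closest pair after it) and were averaged, which left 84 cells. All 9 endothelial markers were above background in every HEC, and at least 7 of 10 pan-hematopoietic markers in every cluster cell. EC had 1 to 9 of the endothelial markers (median 9), and HSC 0 to 10 of the pan-hematopoietic ones (median 8). In 6 cells other markers went against the sort: EC 3 had Dppa3, a germ cell gene, at 14.59, E12.5 cluster cells 3, 6 and 10 had C1qb, a macrophage gene, at 15.69, 15.59 and 15.88, and HSC 5 and 7 had Lyve1, a gene of liver sinusoidal endothelium, at 15.05 and 14.73. Without these 6 cells the median difference of the measured members was 1.70 for HEC minus EC, -1.54 for HSC minus E12.5 cluster cells and -2.42 for HSC minus E10.5 cluster cells.

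Promoter sequence is a feature of these genes that the choice of members did not use. RefSeq promoters (assembly GRCm38.p6, 300 bases around the transcription start) matched 78 of the 94 genes, with 83 promoters. NRF1, GABP (an ETS factor) and YY1 are transcription factors known to act on genes of the respiratory chain. The palindrome bound by NRF1, whose letters are the run of capitals starting GCGCA in the Atp5k and Cox6a1 promoters below, stood in 6 of the 83 promoters (7.23%), against 2.16% of the 11232 promoters of all measured genes and 0.971% of all 32851 promoters in the table. The ETS core CCGGAAG, searched on both strands like the other motifs, stood in 22 (26.5%), against 18.1% of promoters of measured genes and 8.86% of all promoters. The YY1 core AAGATGGCG stood in 7 (8.43%), against 3.14% and 1.4%. The GC box GGGCGG went the other way against measured genes, at 48.2% of member promoters, 63.3% of promoters of measured genes and 35.7% of all promoters. The ERR element TCAAGGTCA stood in 2 member promoters (2.41%), against 0.276% and 0.423%, and the TATA box TATAAA in 10 (12.05%), against 6.93% and 13.6%. The ratio of observed to expected CpG had a median of 0.829 in member promoters, 0.762 in those of measured genes and 0.384 in all. These are matches of letters and not shown to be bound in these cells.

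Of the promoters printed here, those of Atp5k (the e subunit of ATP synthase) and Cox6a1 (a widely expressed subunit of complex IV) hold both an NRF1 palindrome and an ETS core. Those of Cox6b1 and Cox6b2 belong to paired genes for 1 subunit of complex IV that behaved differently below. All lie on the minus strand, Atp5k at chr5:108434350-108434649, Cox6a1 at chr5:115348909-115349208, Cox6b1 at chr7:30626065-30626364 and Cox6b2 at chr7:4753045-4753344 (GRCm38.p6). Capitals mark an NRF1, ETS, YY1 or ERR match. The window of Cox6b1, the widely expressed form, held 1 ETS core, and that of Cox6b2, a form known from testis, held none of the 4 motifs. The CpG ratio of the Cox6b2 window was 0.432, against 0.807 for Cox6b1.
Atp5k: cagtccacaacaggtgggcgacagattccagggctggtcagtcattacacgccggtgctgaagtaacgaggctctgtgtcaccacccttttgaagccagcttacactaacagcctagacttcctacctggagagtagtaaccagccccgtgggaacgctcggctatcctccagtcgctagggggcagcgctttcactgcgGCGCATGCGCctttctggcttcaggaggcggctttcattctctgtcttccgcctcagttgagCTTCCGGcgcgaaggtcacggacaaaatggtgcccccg
Cox6a1: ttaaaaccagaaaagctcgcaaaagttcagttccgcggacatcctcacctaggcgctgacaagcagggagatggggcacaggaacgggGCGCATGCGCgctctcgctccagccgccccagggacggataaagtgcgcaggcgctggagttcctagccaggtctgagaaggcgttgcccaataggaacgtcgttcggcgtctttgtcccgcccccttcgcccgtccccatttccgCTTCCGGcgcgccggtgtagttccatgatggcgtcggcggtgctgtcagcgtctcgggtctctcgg
Cox6b1: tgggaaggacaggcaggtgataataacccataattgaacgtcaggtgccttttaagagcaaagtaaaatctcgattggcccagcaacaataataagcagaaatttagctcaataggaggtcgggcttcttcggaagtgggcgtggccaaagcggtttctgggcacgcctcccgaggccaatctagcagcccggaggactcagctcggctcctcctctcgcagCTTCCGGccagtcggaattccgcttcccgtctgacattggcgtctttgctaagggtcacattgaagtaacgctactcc
Cox6b2: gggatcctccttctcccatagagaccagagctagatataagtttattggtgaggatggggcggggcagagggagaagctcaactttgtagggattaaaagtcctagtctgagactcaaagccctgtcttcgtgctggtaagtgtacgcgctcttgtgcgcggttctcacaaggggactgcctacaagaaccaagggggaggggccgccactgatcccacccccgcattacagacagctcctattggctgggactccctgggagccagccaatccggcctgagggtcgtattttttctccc

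The level of the 87 measured members was lowest in EC and fetal liver HSC and highest in E10.5 cluster cells. Averaged over the members in each cell, EC had 9.15 ± 1.58, HEC 10.68 ± 1.11, E10.5 cluster cells 11.83 ± 0.72, E12.5 cluster cells 10.73 ± 1.46 and HSC 9.26 ± 0.85 (SD over 7, 7, 28, 16 and 26 cells). The cells ran from 7.65 to 10.87 in HSC, against 10.00 to 13.32 in E10.5 cluster cells, and 20 of 26 HSC lay below every E10.5 cluster cell. Every HSC lay below the median of either cluster population, while E12.5 cluster cells ran from 7.06 to 12.72 and so spanned the whole range of the HSC. All 7 HEC lay above the median EC, but only 2 lay above every EC. The neighbours EC and HSC in this order, and HEC and E12.5 cluster cells, differed by less than the SD of either.

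**Figure D1:**
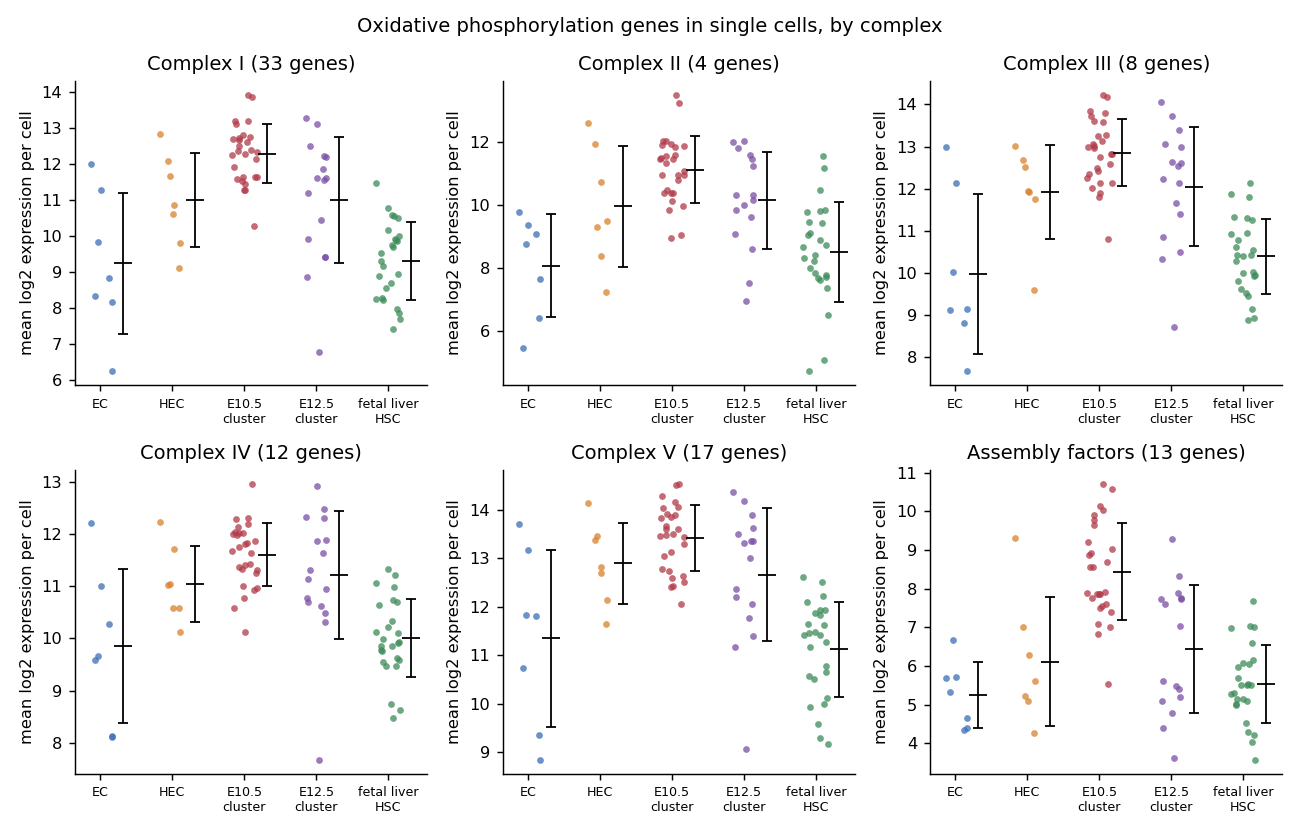
Mean log2 expression per cell (y axes) of the measured genes of each complex and of the assembly factors, by population (x axes); points are cells, and bars give the mean and SD over cells. E10.5 cluster cells have the highest mean in all 6 panels, and EC or fetal liver HSC the lowest.

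In the comparison of HEC with EC, 59 of the 87 measured members were higher by 1 log2 unit or more (67.8%), against 45.9% of all measured genes and 69.2% of widely detected genes. Only Ndufv1 and Cox6b2 were lower by that size (2 members), against 7.36% of all measured and 3.75% of widely detected genes. The value of Cox6b2 rested on EC 3, and without that cell its difference was 0.023. The split of 59 higher and 2 lower became 32 and 8 with cells shifted to an equal median, and 21 and 11 after quantile normalization, which gives every cell the same distribution of values. The median difference was 1.34, against 0.82 over all measured genes and 1.70 over widely detected genes. Over the 72 widely detected members it was 1.54. In the 6 HEC and 3 EC with 6000 to 9000 probe sets above background the members' median was -0.06, beside -0.0029 for all measured and -0.088 for widely detected genes. Those EC include EC 3, whose Dppa3 went against the sort and whose mean over the members was the highest of the EC. Without it, which leaves 2 EC, the members' median was 0.11, beside 0.055 and 0.025.

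In E10.5 cluster cells 41 members were higher than in HEC by 1 or more, against 43.1% of all measured and 51.5% of widely detected genes, and 0 were lower by that size, against 15.7% and 5.7%. The median difference was 0.92, beside 0.71 for all measured genes and 1.06 for widely detected ones. E12.5 cluster cells, set against E10.5 cluster cells, had 41 members lower by 1 or more, against 39.9% of all measured and 55.8% of widely detected genes, and 0 higher, against 5.47% and 1.81%. The median was -0.97, beside -0.66 and -1.15. The 41 members higher than in HEC became 66 with cells shifted to an equal median, 26 with medians over cells and 26 in cells with 6000 to 9000 probe sets. The 41 lower at E12.5 than at E10.5 became 21 after quantile normalization, 24 with medians over cells and 19 in those cells. Among the cells with 6000 to 9000 probe sets, HEC had 7981 or fewer and E10.5 cluster cells 8244 or more. The count of 26 there is thus not one at equal breadth.

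Fetal liver HSC had 66 members lower than in E12.5 cluster cells (75.9%), against 36.9% of all measured genes and 60.1% of widely detected ones, and 0 higher, against 7.91% and 3.57%. The median difference was -1.55, that of all measured genes -0.54 and that of widely detected genes -1.27. Set against E10.5 cluster cells, HSC had 83 members lower (95.4%), against 55.5% of all measured genes and 87.1% of widely detected ones, and 0 higher, against 5.01% and 0.556%. This median was -2.45, beside -1.29 and -2.52. After quantile normalization 21 members were lower and 6 higher than in E12.5 cluster cells, and 44 lower and 1 higher than in E10.5 cluster cells. In the deposited values, the members that did not reach the size against E10.5 cluster cells were Cox6b2, Cox7a1, Cox7c and Cox7a2l. Of these, Cox7c was above background in only 5 of 28 E10.5 cluster cells and 3 of 26 HSC, and Cox7a1 in 3 and 1. Cells with 6000 to 9000 probe sets were 19 HSC, 8 E12.5 and 5 E10.5 cluster cells. There the median was -1.14 against E12.5 cluster cells, beside -0.23 for all measured and -0.96 for widely detected genes. Against E10.5 cluster cells it was -1.39, beside -0.39 and -1.40. Breadth still differed within this band. The E10.5 cluster cells had 8244 probe sets or more, a number reached by HSC 1 alone (8489), with HSC 4 next at 7972. This reading thus does not compare them at equal breadth.

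**Figure D2:**
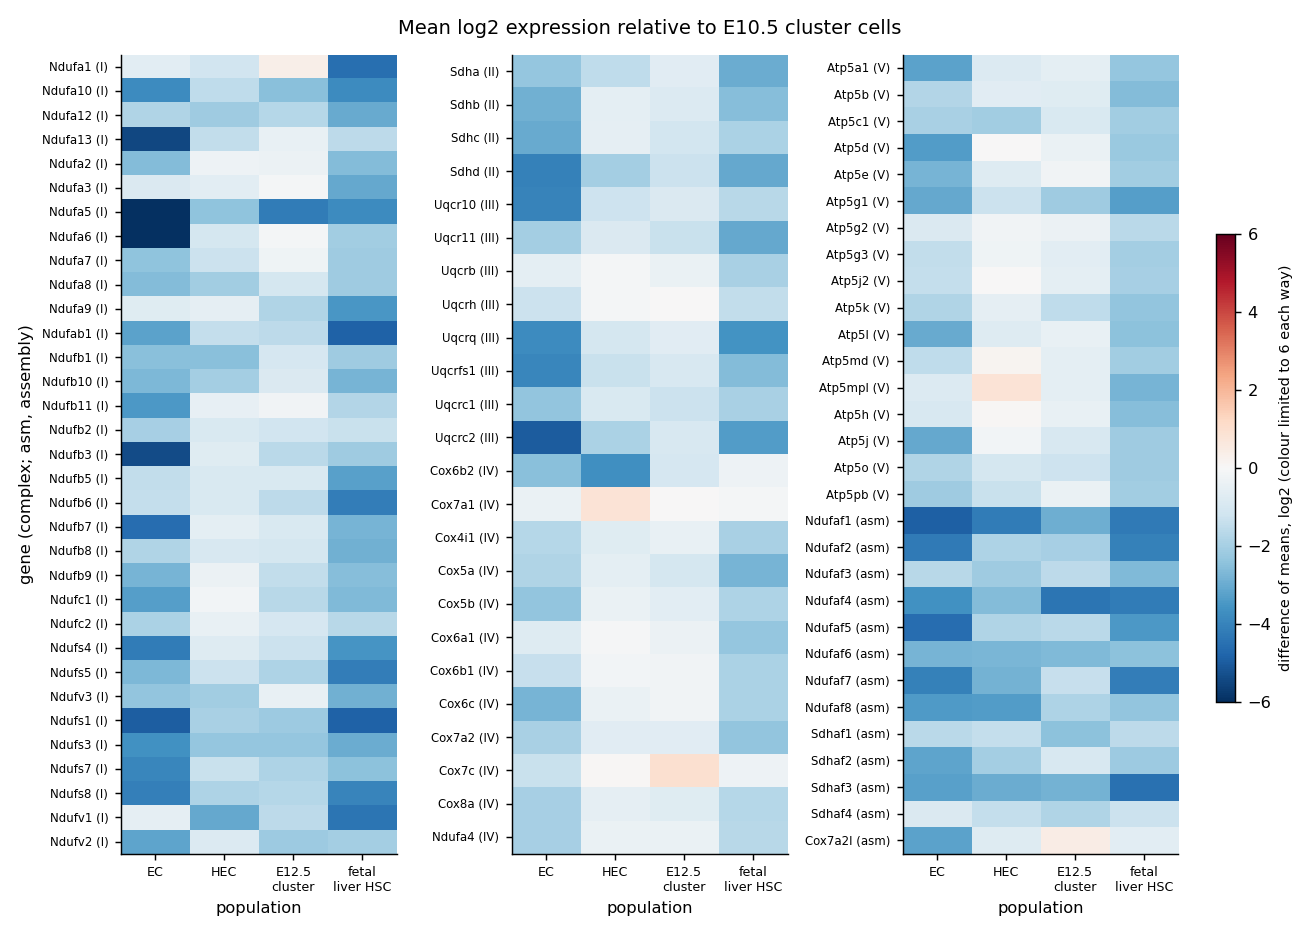
Difference of the mean log2 expression (colour, blue lower and red higher) of each of the 87 measured members in 4 populations (columns) from that in E10.5 cluster cells; rows are genes, labelled with their complex, asm marking assembly factors. Fetal liver HSC are below E10.5 cluster cells for every member, from -4.85 to -0.13.

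All 33 measured genes of complex I were lower in HSC than in E10.5 cluster cells by 1 or more, where 55.5% of all measured and 87.1% of widely detected genes were, with a median of -2.87. Against E12.5 cluster cells 25 of the 33 were lower (median -1.83), where 36.9% and 60.1% of these genes were. The same shares stand behind the counts of the other complexes below. The 6 core subunits, which carry the flavin and the iron-sulfur clusters, had a median of -3.45 against E10.5 cluster cells, and the 27 accessory subunits -2.78. Against E12.5 cluster cells the order was the other way, at -1.43 and -1.83. The difference of complex I from E10.5 cluster cells lay partly in how many cells had a signal. Over the cells above background alone, its median was -1.93, close to the -1.88 of complex IV and the -2.14 of complex V. There the core and accessory subunits hardly differed, at -1.92 and -1.94.

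Ndufs1, the largest core subunit, averaged 7.28 ± 3.49 in HSC and 12.12 ± 0.97 in E10.5 cluster cells. The HSC ran from 2.49 through a median of 8.51 to 12.08, and the E10.5 cluster cells from 9.70 through 12.24 to 13.84. It was above background in 17 of 26 HSC and in all 28 E10.5 cluster cells, and 19 HSC lay below every one of those (difference -4.84). Ndufab1, the mitochondrial acyl carrier protein, differed by -4.85, with 20 of 26 HSC above background against 28 of 28. Ndufs5 and Ndufb6, both accessory subunits, differed by -4.15 and -4.13. None of these 4 genes was without signal in HSC as a whole.

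Ndufa1, an X-linked accessory subunit needed for assembly of complex I, stood apart between HSC and E12.5 cluster cells. It averaged 8.03 ± 3.90 in HSC and 12.89 ± 1.32 in E12.5 cluster cells, the largest difference of any member in that comparison (-4.86). The HSC fell into 17 cells above background and 9 at or under 3.63, while all 16 E12.5 cluster cells had at least 9.67. Ndufa1 was also above background in 7 of 7 EC, 6 of 7 HEC and 27 of 28 E10.5 cluster cells. Ndufa3, another small accessory subunit, differed by -2.99 between HSC and E12.5 cluster cells, with 23 of 26 HSC and 16 of 16 cluster cells above background. Ndufv3, an accessory subunit of the NADH-oxidizing module, differed by -2.45.

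Ndufv1, the core subunit that binds NADH and flavin, had a lower mean in HEC than in EC, while 79 of the 87 measured members had a higher one. It had 13.27, 3.25, 13.67, 2.45, 11.12, 12.52, 2.32 in HEC 1 to 7, against 12.35, 10.89, 12.25, 9.17, 9.58, 10.14, 12.01 in EC 1 to 7. The 4 levels above background in HEC lay within or above the range of EC, and the other 3 cells were at background (difference of means -2.54, or -1.53 without HEC 7). With medians over cells the difference was 0.23, of opposite sign. The gene's 3 probe sets had the same 4 of 7 HEC and 7 of 7 EC above background. In E10.5 cluster cells it was present in all 28 (11.44 ± 1.15), and in HSC in 17 of 26 (7.06 ± 3.78).

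Among accessory subunits, Ndufa6 separated HEC from EC the most. It had 12.93, 10.07, 12.91, 11.26, 11.41, 12.86, 11.36 in HEC 1 to 7, against 3.56, 3.26, 13.84, 3.24, 4.96, 11.19, 3.21 in EC 1 to 7. All HEC were thus above background, and of the EC only cells 3 and 6 (difference 5.65). Ndufb3, Ndufa5, Ndufb7 and Ndufa13 followed with differences of 4.61, 4.38, 4.0 and 3.95, where 3, 3, 4 and 4 of 7 EC had a signal. Ndufs4, Ndufc1 and Ndufs1 were higher in HEC by 3.41, 3.12 and 3.0, though without EC 7 the value of Ndufc1 was 1.98.

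Ndufa5, an accessory subunit of the arm that reaches into the matrix, set the 2 cluster stages apart. It averaged 8.55 ± 4.63 in E12.5 cluster cells and 12.75 ± 1.19 in E10.5 cluster cells, and was above background in 11 of 16 and 28 of 28 cells (difference -4.19). Ndufa10, Ndufs3, Ndufv2 and Ndufs1 were lower in E12.5 cluster cells by 2.51, 2.34, 2.20 and 2.18. Ndufc2, Ndufb11, Ndufa6, Ndufa2, Ndufa3, Ndufa7, Ndufa13 and Ndufb5 to Ndufb9 were above background in all cells of both stages. They include Ndufb6, Ndufb9 and Ndufb8, which differed by -1.57, -1.48 and -1.05 between the stages, while the others were lower by less than 1. Against HEC, Ndufa5 and Ndufs3 were higher in E10.5 cluster cells by 2.40 and 2.30, or by 1.08 without HEC 4 and 1.35 without HEC 2.

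The 4 genes of complex II were all lower in HSC than in E10.5 cluster cells. Sdha, the flavoprotein that oxidizes succinate, averaged 8.45 ± 3.0 in HSC and 11.42 ± 1.66 in E10.5 cluster cells (-2.96). Sdhb, the iron-sulfur subunit, averaged 9.15 ± 2.69 and 11.69 ± 1.25 in these populations (-2.54). The membrane anchors Sdhc and Sdhd differed by -1.89 and -3.08, and 23 and 22 of 26 HSC were above background for them. Sdhc did not keep its difference in cells with 6000 to 9000 probe sets, where it was 0.06. Between HEC and EC the median of the 4 was 2.15. Of the 4, 3 were higher by 1 or more, against 45.9% of all measured and 69.2% of widely detected genes. The per-cell mean of the complex, 4.71 to 11.53 in HSC and 8.94 to 13.48 in E10.5 cluster cells, overlapped between these groups, with 16 of 26 HSC below every E10.5 cluster cell.

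In complex III all 8 measured genes were lower in HSC than in E10.5 cluster cells, with a median of -2.28, and 6 were lower than in E12.5 cluster cells (-1.61). Uqcrfs1, the Rieske iron-sulfur protein, averaged 9.41 ± 1.86 in HSC and 12.03 ± 1.11 in E10.5 cluster cells (-2.62). Uqcrq, a small subunit beside cytochrome b, and Uqcrc2, a core protein, were lower in HSC than in E12.5 cluster cells by 2.90 and 2.38. Uqcrb and Uqcrh, by contrast, were above background in all 84 cells. Of the 8 genes 7 were higher in HEC than in EC, against 45.9% of all measured and 69.2% of widely detected genes (median 2.0), among them Uqcrc2 by 3.08. The electron carriers were lower as well: cytochrome c (Cycs) averaged 9.87 in HSC and 14.60 in E10.5 cluster cells, and cytochrome c1 (Cyc1), a part of complex III outside the symbol rule, 8.95 and 12.56. Testis cytochrome c (Cyct) was above background in no cell.

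Complex IV, cytochrome c oxidase, had a median of 0.39 between E10.5 cluster cells and HEC (0.16 without HEC 7), -0.44 between E12.5 and E10.5 cluster cells (-0.21 without E12.5 cluster cell 1), and -1.87 between HSC and E10.5 cluster cells. Cox4i1, the regulatory subunit found in most tissues, was above background in every cell and averaged 12.64 ± 0.75 in HSC and 14.61 ± 0.58 in E10.5 cluster cells. The HSC ran from 11.22 through 12.60 to 13.95, and the E10.5 cluster cells from 13.11 through 14.69 to 15.87, so the ranges overlapped by less than 1 unit. Its difference of -1.96 was -1.96 when only cells above background were counted, since all cells were.

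Several subunits of complex IV have a widely expressed form and another form known from muscle, heart, lung or testis, and the arrays separated these sharply. Cox4i2 (lung), Cox8b (heart and muscle), Cox8c and Cox7b2 (both testis) were above background in 0 of 84 cells, as was Ndufa4l2, the paralog of the complex IV subunit Ndufa4 known to respond to hypoxia. Cox6a2, the heart and muscle form, had a signal in 2 E10.5 cluster cells, and Cox7a1, likewise from heart and muscle, in 1 HEC, 3 E10.5 cluster cells, 1 E12.5 cluster cell and 1 HSC. Their counterparts Cox4i1, Cox6a1, Cox8a and Ndufa4 were above background in all 84 cells, and Cox7a2 in all but 1 HSC. A probe set without signal does not show that the transcript is absent, since some probe sets read no cell at all even for abundant genes, such as Cox5b, whose 6 probe sets include one above background in no cell.

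Cox6b2 was the exception among these tissue forms. It was above background in 1 of 7 EC, which was EC 3, in 0 of 7 HEC, in 16 of the 28 E10.5 and 7 of the 16 E12.5 cluster cells, and in 12 of 26 HSC. The E10.5 cluster cells ran from 2.63 through 6.77 to 11.52, and the HEC from 2.69 through 2.70 to 3.07 (difference 3.70). In HSC the cells ran from 2.69 through 4.62 to 12.91, a difference of -0.32 from E10.5 cluster cells that was small beside the spread in either. The gene was thus seen in part of the cells of each blood population and in no HEC. It rests on 1 probe set. From counting error only, 0 of 7 HEC allows a share of up to 41% (exact Clopper-Pearson 95% interval). For E10.5 cluster cells the share was 57.1% (37.2 to 75.5%). These intervals treat cells as independent draws, which the labels do not show, so they do not compare the populations. Cox6b1, whose promoter is printed above beside that of Cox6b2, was above background in every cell, at 12.83 ± 1.05 in HSC and 14.73 ± 0.64 in E10.5 cluster cells.

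**Figure D3:**
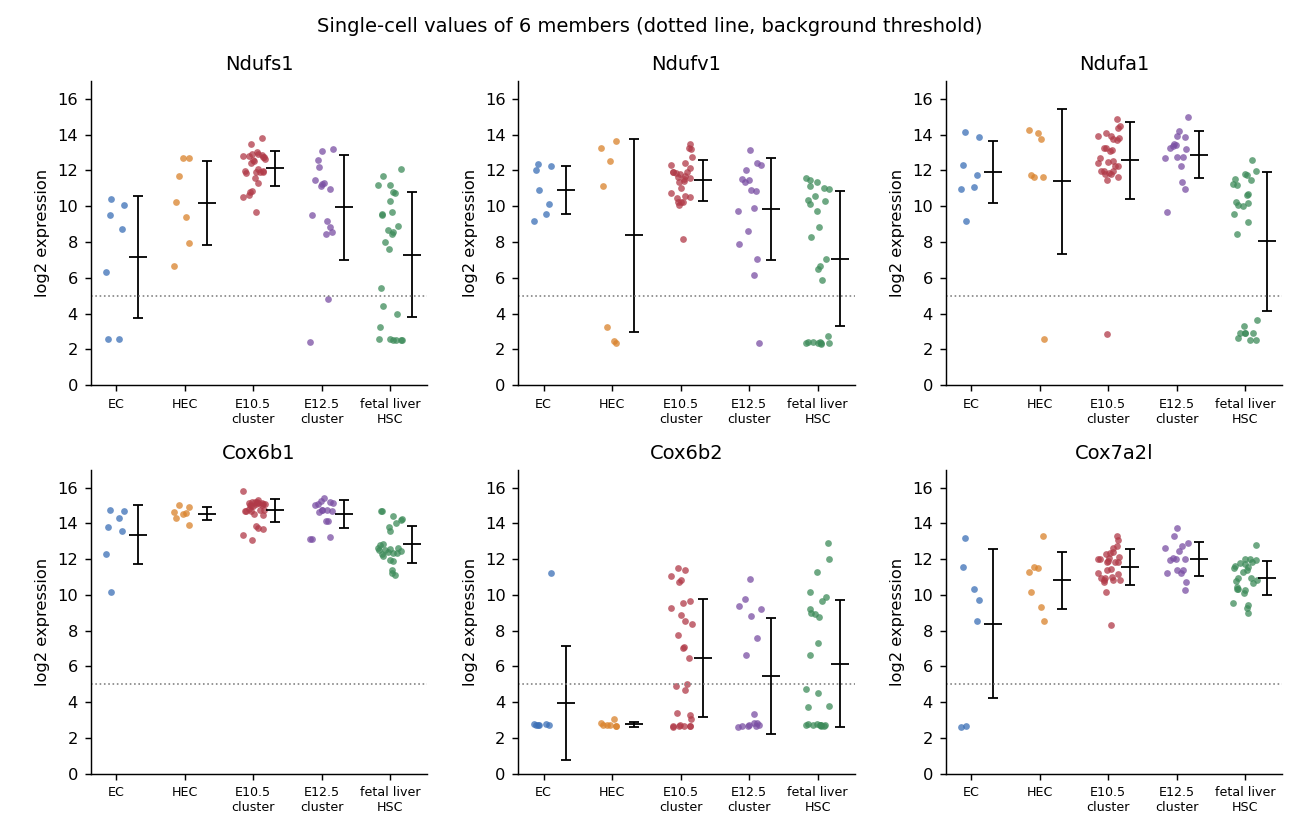
Log2 expression per cell (y axes) of 6 members by population (x axes); points are cells, bars the mean and SD, and the dotted line the background threshold of 5. Ndufs1, Ndufv1 and Ndufa1 split fetal liver HSC into cells with and without signal, Cox6b1 and Cox7a2l are above background in every HSC, and Cox6b2 is above background in 16 E10.5 cluster cells and no HEC.

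The ATP synthase genes of complex V were among the most steadily detected. All 17 were lower in HSC than in E10.5 cluster cells (-2.14), and 15 were lower than in E12.5 cluster cells (-1.50). Between the cluster stages the median was -0.58 (-0.37 without E12.5 cluster cell 1), and between E10.5 cluster cells and HEC 0.55 (0.22 without HEC 4). Between HEC and EC 13 of the 17 genes were higher, against 45.9% of all measured and 69.2% of widely detected genes, with a median of 1.45 (0.83 without EC 2). Atp5d, the delta subunit of the rotor, was higher in HEC by 3.36.

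Atp5b, the catalytic beta subunit, averaged 11.58 ± 1.10 in HSC and 14.20 ± 0.52 in E10.5 cluster cells. The HSC ran from 9.43 through 11.62 to 13.41 and the E10.5 cluster cells from 12.91 through 14.29 to 15.05, so the groups barely overlapped (-2.62). A set of 3 genes encodes the same c subunit of the rotor ring. Atp5g1 differed by -3.30 between HSC and E10.5 cluster cells, Atp5g2 by -1.61 and Atp5g3 by -2.05. Atp5g1 was also lower in E12.5 than in E10.5 cluster cells, by 2.13, while the 3 genes were above background in 25, 26 and 26 of 26 HSC. Atp5mpl, a small membrane subunit, differed by -0.83 between E10.5 cluster cells and HEC, or by -0.53 without HEC 3.

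The assembly factors help build complexes I and II or, in the case of Cox7a2l, join complexes III and IV. They had a median of 0.71 between HEC and EC (0.18 without HEC 3), against 2.12 between E10.5 cluster cells and HEC. There 12 of 13 were higher, against 43.1% of all measured and 51.5% of widely detected genes. E12.5 cluster cells had 11 of the 13 lower than E10.5 cluster cells (-1.86), against 39.9% and 55.8%. HSC had 12 of 13 lower than E10.5 cluster cells (-2.64), against 55.5% and 87.1%. Ndufaf1, a factor for the membrane arm of complex I, was above background in 24 of the 28 E10.5 cluster cells and 2 of 7 HEC (difference 4.19), in 7 of 16 E12.5 cluster cells (-2.93 against E10.5 cluster cells) and in 7 of 26 HSC (-4.25). Ndufaf4, another complex I factor, had 7 of 16 E12.5 cluster cells above background, against 25 of 28 at E10.5 (-4.37).

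Ndufaf7, another assembly factor of complex I, was higher in E10.5 cluster cells than in HEC by 2.85, and lower in HSC than in E12.5 cluster cells by 2.79 and than in E10.5 cluster cells by 4.16. Sdhaf3, a factor for the iron-sulfur subunit of complex II, had 3 of 26 HSC above background, against 19 of 28 E10.5 cluster cells (-4.50). Ndufaf8 and Ndufaf6 were higher in E10.5 cluster cells than in HEC by 3.36 and 2.75. These differences lay mostly in the number of cells with a signal. Over cells above background the assembly median between HSC and E10.5 cluster cells was -0.61. Between E10.5 cluster cells and HEC it was -0.32, of opposite sign, but only 7 of the 13 factors had enough cells with a signal for it. Ndufaf1, Ndufaf8, Sdhaf3 and Ndufaf6, with large differences over all cells, were left out, so the 2 medians there cover different genes. The 35 measured assembly factors outside the symbol rule had similar medians, 1.86 between E10.5 cluster cells and HEC and -2.81 between HSC and E10.5 cluster cells.

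Cox7a2l, which joins complexes III and IV into supercomplexes, behaved unlike the other members of this group. It was above background in 5 of 7 EC and in every cell of the other populations. Its mean was highest in E12.5 cluster cells, at 12.01 ± 0.94, against 11.58 ± 1.00 in E10.5 cluster cells, a difference of 0.43 that was under the SD of either. HSC averaged 10.94 ± 0.97, lower than E12.5 cluster cells by 1.07 and than E10.5 cluster cells by 0.64. It is read on a probe set with the _x_at suffix, which marks probes that can match other transcripts. Its other probe sets lack that suffix and gave the same order of these 3 populations. They averaged 11.75 and 11.66 in E12.5 cluster cells, 11.31 and 11.20 in E10.5 cluster cells, and 10.74 and 10.63 in HSC.

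The number of members with a signal differed between cells as the levels did. Of the 94 members, between 55 and 75 were above background in a single EC, 64 to 80 in an HEC, 76 to 86 in an E10.5 cluster cell, 54 to 83 in an E12.5 cluster cell and 52 to 80 in an HSC. In EC 36 members were above background in every cell, against 4.81% of all measured genes. The same count was 54 in HEC (against 11.9%), 65 (14.9%) and 48 (5.53%) at the E10.5 and E12.5 cluster stages, and 22 in HSC (2.79%). A group of fewer cells reaches every cell more readily. Members present in every HSC included Cox4i1, Cox6a1, Cox6b1, Atp5b, Atp5a1, Uqcrb, Uqcrh, Ndufc2 and Ndufb11.

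Within a population the complexes went together from cell to cell, some pairs more loosely than others. The per-cell means of complexes I and V correlated at r = 0.96 over 28 E10.5 cluster cells, 0.97 over 16 E12.5 cluster cells and 0.76 over 26 HSC. In the same order, complexes I and III correlated at 0.95, 0.98 and 0.55, and I and IV at 0.73, 0.91 and 0.67. The assembly factors and complex I correlated at 0.52, 0.73 and 0.70. The mean of all members also followed the breadth of detection, with r = 0.70, 0.94 and 0.67 against the number of probe sets of other genes above background in these populations. It followed the mean of 39 genes with symbols starting Psma to Psmd, most of them proteasome subunits, at 0.91, 0.97 and 0.84. Genes of 1 cell share its cDNA and its array, so these values describe the cells and the arrays alike, and the part of breadth of detection in the levels was not tested further than in the cells of like breadth above.

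**Figure D4:**
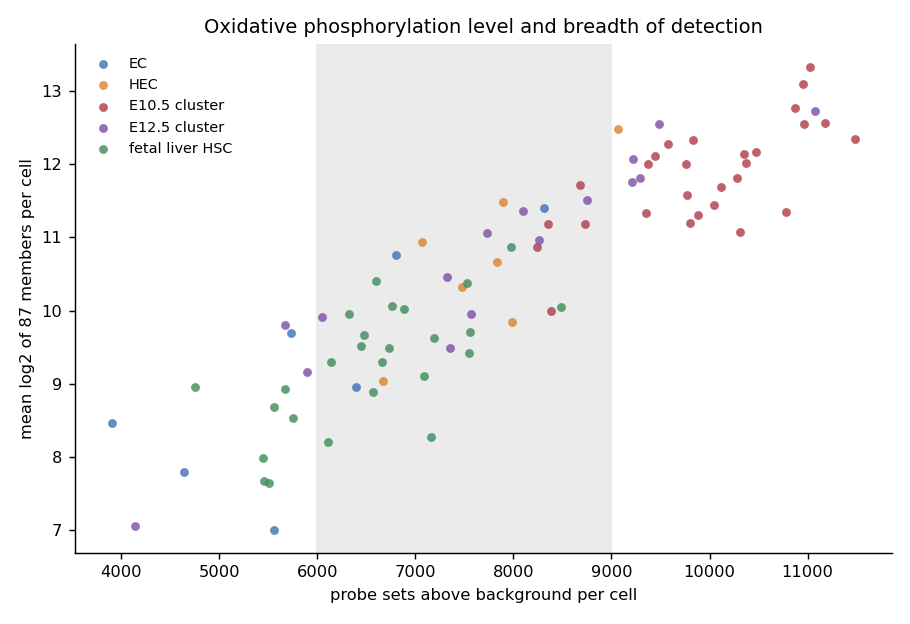
Mean log2 expression of the 87 measured members (y axis) against the number of probe sets above background (x axis) in each of 84 cells, coloured by population; grey marks 6000 to 9000 probe sets. Cells with more probe sets above background had higher means, and inside the grey band most fetal liver HSC lie below most cluster cells.

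Other genes of energy metabolism were counted in the same way, where 55.5% of all measured and 87.1% of widely detected genes were lower in HSC than in E10.5 cluster cells. All 12 measured enzymes of the TCA cycle were lower than in E10.5 cluster cells by 1 or more, with a median of -3.39; the alpha subunit of isocitrate dehydrogenase 3 (Idh3a) differed by -5.90 and dihydrolipoamide dehydrogenase (Dld) by -5.91. All 7 measured carriers and regulators of ATP synthase were lower (-2.69), among them the ATP and ADP carriers Slc25a4 and Slc25a5 by 3.21 and 2.54. Of 10 measured genes of the pyruvate carrier, the pyruvate dehydrogenase complex and its kinases and phosphatases 8 were lower (-3.02), and of 76 genes with Mrpl or Mrps symbols, those of mitochondrial ribosomal proteins, 75 (-3.91). ND5, a complex I subunit encoded in mitochondrial DNA, averaged 12.66 in E10.5 and 12.25 in E12.5 cluster cells and 10.80 in HSC.

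Glycolysis did not go the other way. Of its 19 measured genes 16 were lower in HSC than in E10.5 cluster cells, with a median of -2.49, close to the -2.45 of the oxidative phosphorylation genes. The lactate and pyruvate transporter Slc16a1 differed by -7.07 and hexokinase 2 (Hk2) by -5.93. Lactate dehydrogenase B (Ldhb) was the 1 gene of the list that was higher by that size, at 9.84 in HSC (23 of 26 cells above background), against 5.96 in E10.5 cluster cells (11 of 28). Lactate dehydrogenase A (Ldha), its partner, was lower by 2.44 in HSC than in E10.5 cluster cells.

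Gene groups outside energy metabolism give the scale for these values. Between HSC and E10.5 cluster cells 37 of 39 measured genes whose symbols start with Psma to Psmd were lower and 2 higher (-3.05). Most of these encode proteasome subunits, and Psmc3ip among them does not. Of 47 genes with Rpl or Rps symbols, nearly all for cytoplasmic ribosomal proteins, 20 were lower (-0.83). In cells with 6000 to 9000 probe sets the medians were -1.75 for the proteasome list, -0.42 for cytoplasmic ribosomal proteins, -1.42 for glycolysis, -1.93 for the TCA cycle and -1.39 for oxidative phosphorylation. After quantile normalization, oxidative phosphorylation was at -1.01 and all measured genes at -0.04. Set against E10.5 cluster cells, the oxidative phosphorylation genes were thus lower in HSC to about the extent of widely detected genes (-2.52, -1.40 and -0.90 in the 3 readings), and by more than cytoplasmic ribosomal proteins (0.04 after quantile normalization).

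**Figure D5:**
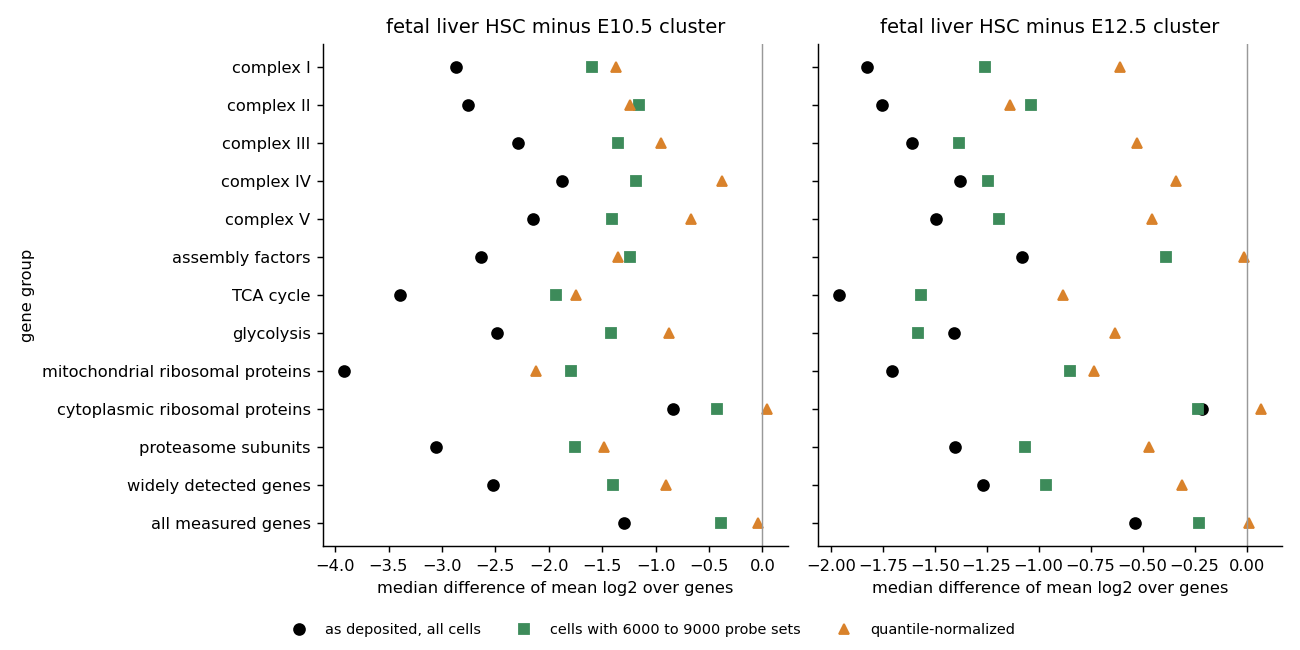
Median difference of mean log2 expression (x axes) for gene groups (y axis) between fetal liver HSC and E10.5 cluster cells (left) and E12.5 cluster cells (right), for the deposited values in all cells, in cells with 6000 to 9000 probe sets above background, and after quantile normalization. Complexes I to V are below 0 in all 3 readings of both panels, and cytoplasmic ribosomal proteins lie nearer to 0 than any complex.

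Among regulators of mitochondrial gene expression, 11 of 14 measured genes were lower in HSC than in E10.5 cluster cells, against 55.5% of all measured and 87.1% of widely detected genes, and the median of -2.16 lay between those of all measured (-1.29) and widely detected genes (-2.52). The ETS factor Gabpa, the DNA-binding subunit of GABP, averaged 7.39 in HSC (16 of 26 cells above background) and 10.91 in E10.5 cluster cells (28 of 28). Tfam, which packages and transcribes mitochondrial DNA, averaged 9.32 and 11.38 in these populations. Pprc1, a coactivator of the PGC-1 family, had 15 of 26 HSC and 26 of 28 E10.5 cluster cells above background. Nrf1 was above background in 2 HSC and 13 E10.5 cluster cells, and Ppargc1a, the best known member of the PGC-1 family, in 1 HSC and no other cell.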

How the data were processed

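Per the labels' protocols, cDNA was made directly from the lysate of each single cell, and biotinylated cRNA was hybridised to an Affymetrix array (45101 probe sets). The deposited values are on a log2 scale. GCRMA and affy are named in the submitters' processing notes, without versions. GCRMA removes a background modelled on probe sequence, which gathers low signals at a floor. The control probe set Dap 3' held the same value (12.64) on 82 of 85 arrays, and which scaling made this is not stated. The deposited values were used as they are, with quantile normalization as an alternative. No scan date or batch was given.

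Probe sets with 1 symbol (34958) in a table of the platform's annotation gave 18194 genes, each on its brightest probe set. The level of a population is the mean log2 value over its cells, a difference is that of 2 such means, and a size of 1 log2 unit was counted as called. The members and gene lists were chosen with earlier results of these data known. Named per comparison were the members with the 10 largest differences each way of 1 or more, among members above background in 50% of cells of the higher population, with all of complex II, genes encoding the same subunit, and members above background in every cell or none. Ndufa2, Ndufa7, Ndufb5, Ndufb8, Ndufb9, Ndufb11, Uqcrfs1, Cox5b, Cox7c, Atp5a1, Atp5mpl and Cox7a2l fall outside this rule and were chosen after their values were seen. Correlations are Pearson's r over cells, as description. Depth has no counterpart in reads, and the number of arrays limits precision. Alternatives were scaling, probe set choice, thresholds and subsets of cells. The computation (Python 3.11.15, numpy 2.4.6, pandas 2.3.3) was tested on simulated data. Probe sets with several symbols (932) and proteins were not analysed here.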

Additional observations from a re-analysis of the deposited data

Results flagged for a closer look

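Among the groups of 7 cells, EC and HEC, a cell was set apart where its gap to the nearest other cell exceeded, as a share of the group's range, Dixon's 95% critical value. This held for 40 of 190 groups tested (members and per-cell means), where chance alone sets apart about 1 in 20 groups of normally distributed values. Some of these groups have 1 cell with a signal and the rest at the floor, and the groups share the same cells. The count therefore cannot be set against that rate. Of the 16 per-cell means 1 stood out, that of complex III in HEC 4 at 9.59, the lowest of the HEC. HEC 4 was also lowest in Uqcrc2, at 8.86, and had the fewest probe sets above background of the HEC (6670). HEC 5 had Ndufa13 at 2.95, while the other 6 HEC were above background. Cox6b2 was at 11.20 in EC 3, the cell with germ cell transcripts, and at background in the other 6 EC. The value of Cox6b2 in HEC 4, 3.07, stood out too but lay under the background threshold like all HEC.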

How the results depend on the processing

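The median difference of the members kept its direction under every alternative for E10.5 cluster cells minus HEC, E12.5 minus E10.5 cluster cells and HSC minus either cluster population, and for HEC minus EC under all but 1. Below, counts are of members at or beyond 1 log2 unit. In cells with 6000 to 9000 probe sets above background, HEC minus EC was -0.057, with 19 higher and 22 lower. The medians of complexes III, IV and V were -0.13, -0.32 and -0.057 there. The same cells gave 26 higher and 3 lower for E10.5 cluster minus HEC, 9 higher and 19 lower for E12.5 minus E10.5 cluster, 6 higher for HSC minus E12.5 cluster, and -1.39 with 2 higher for HSC minus E10.5 cluster. Ndufaf8 was -0.076 for E10.5 cluster minus HEC and Sdhc 0.057 for HSC minus E10.5 cluster. These values come from fewer cells, 3 of them EC, and breadth still differed there between E10.5 cluster cells and HEC or HSC. The cause was not tested. Without the 6 cells of other identity as well, chosen after seeing the data, HEC minus EC (2 EC) had 24 higher and 14 lower, with complex I at -0.067, complex II at -0.17, Ndufa5 at -2.91, Ndufa13 at -0.19 and Cox6b2 at 0.067. E12.5 minus E10.5 cluster then had 6 higher and 23 lower, HSC minus E12.5 cluster 9 higher and 41 lower, and HSC minus E10.5 cluster a median of -1.47. After quantile normalization HEC minus EC had 21 higher and 11 lower, E10.5 cluster minus HEC 1 lower, E12.5 minus E10.5 cluster 21 lower, HSC minus E12.5 cluster 6 higher and 21 lower, and HSC minus E10.5 cluster -1.01 with 1 higher and 44 lower. It removed most of the shift of all genes (-0.04 for HSC minus E10.5 cluster). With cells shifted to an equal median, HEC minus EC had 32 higher and 8 lower, and E10.5 cluster minus HEC 66 higher. With medians over cells, E10.5 cluster minus HEC had 26 higher, E12.5 minus E10.5 cluster 24 lower and HSC minus E12.5 cluster 3 higher, and Ndufv1 for HEC minus EC was 0.23. Without the 6 cells of other identity HEC minus EC had 1 lower, and Cox6b2 was 0.023 there, as without EC 3 alone. With all probe sets of a gene averaged, E12.5 minus E10.5 cluster had 1 higher, and without the _x_at and _s_at probe sets 1, as had HSC minus E12.5 cluster (1). In the cells whose 2 control probe sets held the shared value, E10.5 cluster minus HEC had 2 lower, E12.5 minus E10.5 cluster 1 higher and HSC minus E12.5 cluster 3 higher.

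An alternative chosen after seeing the data counted only the cells above background for a gene. It gave HEC minus EC 0 lower, E10.5 cluster minus HEC 18 higher and 2 lower, E12.5 minus E10.5 cluster 1 higher and 18 lower, and 2 and 1 higher for HSC minus E12.5 and minus E10.5 cluster. By construction it drops the cells without signal. Ndufv1 was 1.73 for HEC minus EC and -1.21 for E10.5 cluster minus HEC, Ndufb3 -0.18 for HEC minus EC, and Ndufaf1 0.024 for E12.5 minus E10.5 cluster. The assembly factors were -0.32 (over 7 of the 13), Ndufaf4 -0.32 and Ndufaf7 -0.72 for E10.5 cluster minus HEC. Restricting the members to those above background in 75% of cells, also chosen later, left 1 lower for HEC minus EC. Leaving out 1 cell at a time, the members lower in HEC than in EC ran from 1 to 4, those lower in E10.5 cluster cells than in HEC from 0 to 1, those higher in E12.5 than in E10.5 cluster cells from 0 to 1, and those higher in HSC than in E12.5 cluster cells from 0 to 1. No paired analysis was possible because the numbers of the cells only name them and no test was made.

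Signal over background limits these values: a transcript that is absent from a cell and one that was not captured cannot be told apart. Among the probe sets read, 13 and 5 of the 94 brightest carry the _s_at and _x_at suffixes of probes that can match other transcripts. Where a gene's other probe sets went the other way, as for Atp5c1, Cox5b, Ndufab1 and Cox7c between HSC and E10.5 cluster cells, those were near background in most cells. For Cox7c the probe set that was read was near background in most cells too.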

Other observations

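The mitochondrial pyruvate carrier Mpc1 averaged 10.89 in E10.5 cluster cells (27 of 28 cells above background) and 5.63 in HEC (2 of 7). Pdhx, a subunit of the pyruvate dehydrogenase complex, was above background in 21 of the 28 E10.5 cluster cells and in 0 of 7 HEC. Of 10 measured genes of the pyruvate carrier and the pyruvate dehydrogenase complex, among them its inhibiting kinases Pdk1, Pdk2 and Pdk3, 7 were higher in E10.5 cluster cells by 1 log2 unit or more, against 43.1% of all measured and 51.5% of widely detected genes (median difference 1.72), and of 12 TCA cycle enzymes 11 (2.35), beside 0.92 for the oxidative phosphorylation genes and 1.06 for widely detected genes.

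Of 6 measured genes for other routes of electrons to ubiquinone, 5 were lower in HSC than in E10.5 cluster cells, against 55.5% of all measured and 87.1% of widely detected genes (median -2.69). Dhodh, an enzyme of pyrimidine synthesis in the inner membrane, had 4 of 26 HSC above background, against 24 of 28 E10.5 cluster cells (difference -5.51). Etfb, a subunit of the flavoprotein that takes electrons from fatty acid oxidation, averaged 10.79 in E10.5 cluster cells and 5.81 in HEC, and was above background in 24 of 26 HSC.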
